A study of Mus musculus with 12 samples.

Results

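The proteasome gene family was followed in mouse B cells cultured with or without interleukin-4 (IL-4), with and without STAT6, the transcription factor that carries the IL-4 signal to the nucleus. Members were all genes whose array name begins with Psm, a letter from a to g and a number. That rule gave 49 of the 34650 gene names on the array, and 47 of the 49 were bright enough to be tested, among 16497 genes tested in all. B cells had been isolated by negative selection from spleens of female BALB/c mice 9 weeks old, either wild type or carrying the genotype labelled STAT6 ko. All cultures, controls included, received anti-CD40 antibody at 10 µg/ml and LPS (lipopolysaccharide) at 2 µg/ml for 4 days, and fresh medium on day 3. The IL-4 cultures also received IL-4 at 25 ng/ml. The groups were therefore wild type control, wild type with IL-4, knockout control and knockout with IL-4, with 3 arrays each and 12 in all. The labels call the samples triplicates and do not say that they came from separate mice, so p-values measure the spread between these samples, which may be technical.

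The proteasome is a barrel of stacked rings, the 20S core, closed at its ends by caps. The outer rings hold the alpha subunits (Psma genes), which gate the entrance, and the inner rings hold the beta subunits (Psmb genes), of which Psmb5, Psmb6 and Psmb7 cut proteins. Interferon and other inflammatory signals replace those catalytic subunits with Psmb8, Psmb9 and Psmb10, which form the immunoproteasome, and raise the PA28 activator made by Psme1 and Psme2. The immunoproteasome is abundant in lymphocytes and favours peptides that fit MHC class I molecules. The 19S cap, made by Psmc (ATPase) and Psmd genes, recognises, unfolds and threads in proteins tagged with ubiquitin.

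Promoters are shown for the 3 inducible catalytic genes and for Psmb6, the constitutive catalytic gene that rose with IL-4 in both genotypes, because the results below turn on these 4 members. Each is the 250 bases before the annotated start, 5′ to 3′ on the gene's own strand, from RefSeq on build GRCm38.p6. Capitals mark matches to any of 4 motifs searched on both strands in the 300 bases from 250 before to 50 after the start: the interferon-stimulated response element, TTCNNNGAA (a STAT element), the same STAT element with 1 more spacer base (typical of STAT6) and TGACNNNGC (the core of the element read by NRF1 and NRF2). Matches of different motifs were counted separately, whether or not they overlapped.
Psmb8, chr17:34197945-34198194, plus strand: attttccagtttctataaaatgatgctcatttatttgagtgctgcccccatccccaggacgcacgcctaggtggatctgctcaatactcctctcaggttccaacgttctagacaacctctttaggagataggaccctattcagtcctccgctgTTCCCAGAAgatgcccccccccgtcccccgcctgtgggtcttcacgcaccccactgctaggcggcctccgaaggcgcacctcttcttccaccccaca
Psmb9, chr17:34187331-34187580, minus strand: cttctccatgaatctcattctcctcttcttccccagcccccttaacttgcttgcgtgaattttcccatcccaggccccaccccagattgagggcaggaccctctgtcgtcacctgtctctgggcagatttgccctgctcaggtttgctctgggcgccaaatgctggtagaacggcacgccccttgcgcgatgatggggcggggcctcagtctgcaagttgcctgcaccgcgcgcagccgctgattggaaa
Psmb10, chr8:105938393-105938642, minus strand: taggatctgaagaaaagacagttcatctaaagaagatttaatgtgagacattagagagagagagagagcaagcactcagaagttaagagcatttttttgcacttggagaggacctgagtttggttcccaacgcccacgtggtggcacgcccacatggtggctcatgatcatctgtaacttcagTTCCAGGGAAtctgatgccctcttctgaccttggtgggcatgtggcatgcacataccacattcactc
Psmb6, chr11:70525107-70525356, plus strand: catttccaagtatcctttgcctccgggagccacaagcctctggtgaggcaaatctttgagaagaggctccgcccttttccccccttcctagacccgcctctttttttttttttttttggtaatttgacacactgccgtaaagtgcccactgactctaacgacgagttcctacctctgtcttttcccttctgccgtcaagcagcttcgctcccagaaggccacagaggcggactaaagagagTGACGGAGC
Psmb8 held 1 STAT element, TTCCCAGAA, 97 bases before its start, and Psmb10 held 1 with the longer spacer, TTCCAGGGAA, 67 bases before its start. Psmb6 held 1 NRF core, TGACGGAGC, 9 bases before the start, and Psmb9 held none of the 4 motifs. Psme1 carried an interferon response element, TTTCGCTTTC, 10 bases after its start. The promoter table matched 42 member genes with 45 promoters, Psme2 included. The interferon element was in 11.1% of these 45 and in 3.44% of all 32851 promoters, the STAT element in 6.67% against 8.3%, its longer form in 2.22% against 6.95%, and the NRF core in 13.3% against 12.4%. By set, the interferon element was in 1 of 6 immunoproteasome promoters and 4 of 39 other member promoters. A match describes letters, not binding.

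Levels are given as log2 of the background-subtracted intensity of the gene's brightest probe, relative to the 75th percentile of its own array, so 0 is a probe at that percentile and a step of 1 is a 2-fold change. A probe's level is compared only with its own level on other arrays, because probes differ in how strongly they light up. A gene was called when its adjusted p from limma, corrected over all 16497 genes, was under 0.05. The 75th percentile of raw intensity lay between 296 and 356 on the 12 arrays, 40.7 to 44 percent of spots were well above background, and arrays of a group correlated at 0.994 to 0.998. The probe for Stat6 read 3.11 to 3.42 on the 6 wild type arrays and 1.13 to 1.59 on the 6 knockout arrays, without overlap, and whether it lies inside the deleted part was not given. Of the B cell markers, Ms4a1 lay between 8.41 and 8.71 over the 12 arrays, Cd79b between 8.15 and 9.02, Cd79a between 5.91 and 6.94, Pax5 between 0.02 and 0.96 and Cd22 between -1.77 and -0.94. With IL-4 in wild type, Cd79a (-0.91), Pax5 (-0.78) and Cd22 (-0.57) fell, Cd79b rose (0.64) and Ms4a1 gave -0.02. The arrays came on 2 slides: the first 2 knockout controls shared slide 1 with the 6 wild type arrays, and the 3 knockout IL-4 arrays were on slide 2 with the remaining knockout control. In a bulk sample fewer cells of a type and less RNA per cell cannot be told apart.

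Psmb9, the interferon-inducible subunit that takes the place of Psmb6, was lower with IL-4 in wild type cells and higher with IL-4 in knockout cells. Its levels were 7.56, 7.61 and 7.62 in wild type controls and 6.90, 7.03 and 6.95 with IL-4. In knockout cells they were 7.46, 7.43 and 7.48 without and 7.87, 7.82 and 7.77 with IL-4. No array of an IL-4 group overlapped its control group, and the lowest and the highest of the 12 values were both from IL-4 arrays, of opposite genotype. Psmb9 fell 1.56-fold in wild type (log2 change -0.64, SE 0.05, limma adjusted p = 1.31e-06) and rose 1.29-fold in knockout (0.37, SE 0.05, adjusted p = 0.000222). The difference between the responses, wild type minus knockout, was -1 (95% interval -1.16 to -0.85, limma adjusted p = 1.46e-06). By brightest probes, Psmb9 was the 1 member whose difference reached 2-fold. Within slide 2, where knockout control 3 is the only control, the knockout change was 0.34. A dimmer Psmb9 probe, annotated to another transcript, gave -0.28 in wild type (adjusted p over all probes 0.0112), 0.47 in knockout (0.000997) and a difference of -0.74 (0.000404). The used probe lies at chr17:34319174-34319233 on build mm9, on the minus strand.

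Psmb6, the constitutive counterpart, moved the other way in wild type cells. Its levels were 6.85, 6.87 and 6.86 in wild type controls and 7.22, 7.26 and 7.28 with IL-4. They were 6.88, 6.80 and 6.73 in knockout controls and 7.07, 7.06 and 6.98 with IL-4. Psmb6 rose 1.31-fold in wild type (0.39, SE 0.05, limma adjusted p = 5.93e-05) and 1.17-fold in knockout (0.23, SE 0.05, adjusted p = 0.00386), and the difference of 0.16 did not pass (95% interval 0.01 to 0.32, adjusted p = 0.0804). As a within-array difference of log2 levels, Psmb9 minus Psmb6 changed by -1.03 with IL-4 in wild type and by 0.13 in knockout, where the pooled standard deviation between arrays of a group was 0.05 (n = 3 per group).

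**Figure D1:**
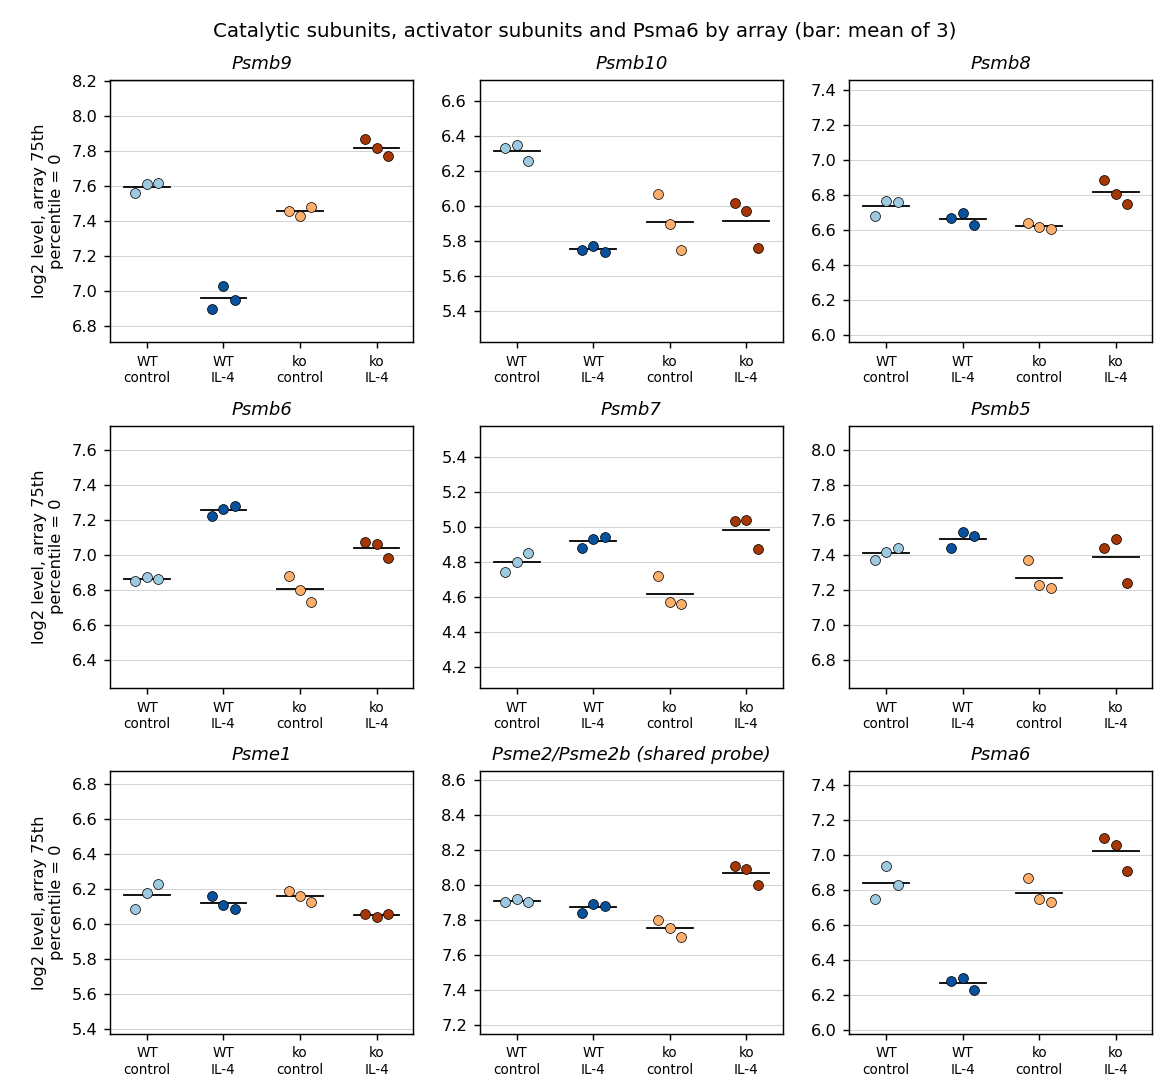
Log2 level of 9 members on each array (y axis, array 75th percentile = 0, each panel spanning 1.5 log2 units) in the 4 groups; dots are arrays, bars the mean of 3. In all 3 wild type IL-4 arrays Psmb9, Psmb10, Psma6 and, narrowly, the shared Psme2/Psme2b signal sit below their controls. Psmb6, Psmb7 and, narrowly, Psmb5 sit above theirs, and Psmb9 is highest in the knockout IL-4 arrays.

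Psmb10, which replaces the trypsin-like Psmb7, was lower with IL-4 in wild type cells. Wild type controls read 6.33, 6.35 and 6.26, and wild type IL-4 arrays 5.75, 5.77 and 5.74. Knockout controls read 6.07, 5.90 and 5.75, and knockout IL-4 arrays 6.02, 5.97 and 5.76. The wild type groups were far apart and the knockout groups overlapped over their whole range, with array 3 lowest in both. Psmb10 fell 1.47-fold in wild type (-0.56, SE 0.09, limma adjusted p = 0.000296), gave 0.01 in knockout (95% interval -0.18 to 0.20, adjusted p = 0.94) and differed between the genotypes by -0.57 (adjusted p = 0.00411). Knockout controls were also below wild type controls (-0.41, SE 0.09, adjusted p = 0.0227), and that call was lost in 8 of 22 alternatives, among them the slide as a block (-0.33, adjusted p = 0.0783) and leaving out wild type control 1, 2 or 3 or knockout control 2 or 3 (-0.43 to -0.33).

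Psmb7 itself read 4.74, 4.80 and 4.85 in wild type controls and 4.88, 4.93 and 4.94 with IL-4. In knockout it read 4.72, 4.57 and 4.56 without and 5.03, 5.04 and 4.87 with IL-4. Psmb7 rose in knockout (0.36, SE 0.06, limma adjusted p = 0.00125), did not pass in wild type (0.12, adjusted p = 0.139) and differed by -0.24 (adjusted p = 0.0468), a call that held in 8 of 22 fits in all and was lost without any 1 of wild type controls 2 and 3, the wild type IL-4 arrays, knockout controls 2 and 3 or knockout IL-4 arrays 1 and 2 (-0.26 to -0.22). On the within-array scale, Psmb10 minus Psmb7 changed by -0.67 with IL-4 in wild type and by -0.35 in knockout (pooled SD 0.07, n = 3 per group).

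Psmb8, which replaces the chymotrypsin-like Psmb5, changed little. Its levels were 6.68, 6.77 and 6.76 in wild type controls, 6.67, 6.70 and 6.63 in wild type with IL-4, 6.64, 6.62 and 6.61 in knockout controls and 6.89, 6.81 and 6.75 in knockout with IL-4. The knockout groups did not overlap and the wild type groups did. Psmb8 did not pass in wild type (-0.07, 95% interval -0.18 to 0.04, limma adjusted p = 0.241), rose 1.14-fold in knockout (0.19, SE 0.05, adjusted p = 0.00943) and differed by -0.26 (adjusted p = 0.0108). Under quantile normalization the difference was -0.14 and in the authors' normalized table -0.11, neither of which passed, and the knockout change was 0.10 and 0.07. Psmb5 read 7.37, 7.42 and 7.44 in wild type controls and 7.44, 7.53 and 7.51 with IL-4, then 7.37, 7.23 and 7.21 in knockout controls and 7.44, 7.49 and 7.24 with IL-4. None of its 5 comparisons passed (differences from -0.14 to 0.12). Psmb8 minus Psmb5 changed by -0.15 in wild type and 0.07 in knockout (pooled SD 0.07).

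Among the activators, Psme1 (PA28 alpha) gave no call in any comparison. It read 6.09, 6.18 and 6.23 in wild type controls, 6.16, 6.11 and 6.09 with IL-4, 6.19, 6.16 and 6.13 in knockout controls and 6.06, 6.04 and 6.06 in knockout with IL-4. Its change was -0.05 in wild type (95% interval -0.15 to 0.06, limma adjusted p = 0.394) and -0.11 in knockout (-0.21 to 0, adjusted p = 0.0944).

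Psme2 (PA28 beta) has no probe of that name on the array. Of 3 probes filed under Psme2b, a gene nearly identical to Psme2, the brighter 2 list accessions of both genes, so their signal cannot be split between them. The brightest read 7.90, 7.92 and 7.90 in wild type controls, 7.84, 7.89 and 7.88 with IL-4, 7.80, 7.75 and 7.70 in knockout controls and 8.11, 8.09 and 8 in knockout with IL-4. The wild type IL-4 values lay just below those of the controls, whereas in knockout they lay well above. The shared signal gave -0.04 in wild type (95% interval -0.14 to 0.06, limma adjusted p = 0.498), rose 1.24-fold in knockout (0.31, SE 0.05, adjusted p = 0.000416) and differed by -0.35 (adjusted p = 0.00156). The other shared probe gave -0.03, 0.41 and -0.44.

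The remaining Psme2b probe lists Psme2b accessions only and behaved unlike the shared probes. It read 1.74, 1.71 and 1.82 in wild type controls and -2.98, -3.68 and -2.62 with IL-4. Knockout controls read 1.60, 1.45 and 1.45, and knockout IL-4 arrays 1.22, 1.5 and 1.29. Wild type IL-4 arrays stood far below all 9 other arrays, and the probe was well above background on 2 of those 3. The log2 change was -4.85 in wild type (28.8-fold lower, 95% interval -5.32 to -4.38, limma adjusted p over all probes 2.34e-08), -0.16 in knockout (-0.63 to 0.31, adjusted p = 0.577) and -4.69 for the difference (adjusted p = 1.02e-06). With the dim array raised to the lowest signal well above background there, the wild type change was -4.79. It ranged from -5.09 to -3.39 over 17 alternatives, the smallest with normexp background correction, so the fold depends on how the background is taken off. This probe lies at chr11:48759630-48759689 on mm9, and a probe of the gene 9930111J21Rik1 lies 0.1 kb away at chr11:48759713-48759772, so which transcript it reads was not tested. That neighbour changed by -4.28 in wild type and -0.30 in knockout. Within 100 kb on either side, 5 genes were tested, and all 5 fell with IL-4 in wild type, beside 30.8% of all genes called lower. They were Trim7 (-1.19), Irgm1, an interferon-induced GTPase (-1.89), Gm5431 (-2.18), 9930111J21Rik1 and 9930111J21Rik2 (-5.06). These neighbours were looked up after the probe's values had been seen.

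**Figure D2:**
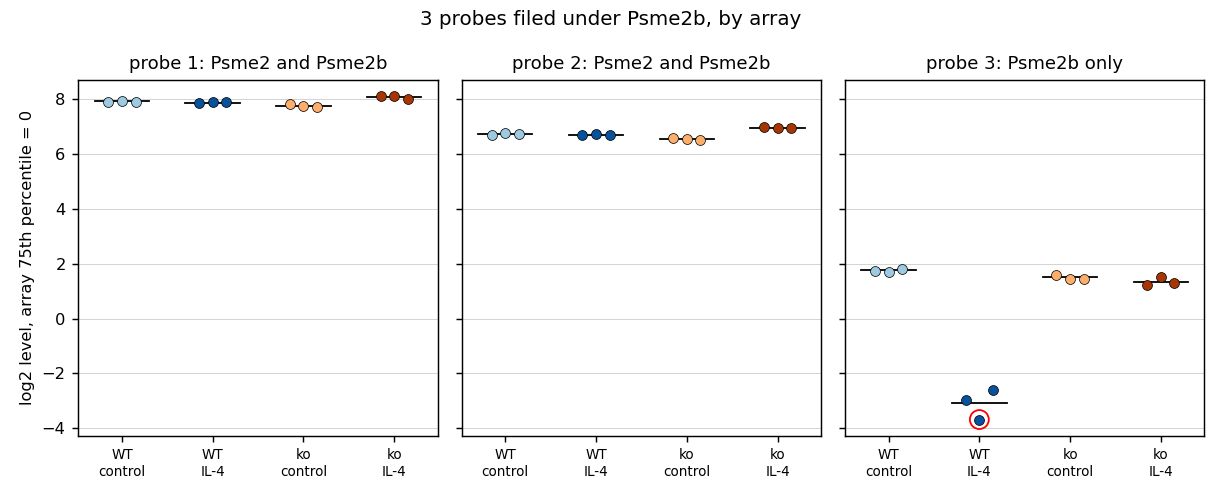
Log2 level (y axis, array 75th percentile = 0) of the 3 probes filed under Psme2b on each of 12 arrays; bars are means of 3 and the ringed dot is the array not well above background. Only the probe without Psme2 accessions drops in the wild type IL-4 arrays, to between -3.68 and -2.62.

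Psme3 (PA28 gamma, a nuclear activator) read 1.65, 1.80 and 1.81 in wild type controls and 1.49, 1.70 and 1.62 with IL-4, then 1.58, 1.54 and 1.22 in knockout controls and 1.87, 1.82 and 1.62 with IL-4. It gave -0.15 in wild type (limma adjusted p = 0.254), rose in knockout (0.32, SE 0.11, adjusted p = 0.031) and differed by -0.47 (adjusted p = 0.0262). The knockout call was lost without knockout control 3 (0.21) or knockout IL-4 replicate 1 (0.28) or 2 (0.30). The difference lost its call without wild type control 2 (-0.45) or 3 (-0.44), wild type IL-4 replicate 1 (-0.42), or knockout IL-4 replicate 1 (-0.42) or 2 (-0.44).

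Psme4 (PA200, an activator linked to histone breakdown) depended on genotype with and without IL-4. It read 1.82, 1.75 and 1.81 in wild type controls, 2.07, 1.99 and 2.20 with IL-4, 1.38, 1.43 and 1.48 in knockout controls and 1.56, 1.63 and 1.55 in knockout with IL-4. Every knockout array lay below every wild type array. Psme4 rose in wild type (0.29, SE 0.06, limma adjusted p = 0.0018) and was lower in knockout than in wild type both without IL-4 (-0.36, adjusted p = 0.0083) and with it (-0.51, adjusted p = 5.01e-05). The used probe gave a difference between the responses of 0.15 (adjusted p = 0.187), but a dimmer Psme4 probe gave 0.54 in wild type, 0.04 in knockout and a difference of 0.50 (adjusted p over all probes 0.00352). The probes also disagreed on the controls, where the dimmer one gave -0.08 (adjusted p = 0.458). Psmf1, the inhibitor PI31, gave no call in any comparison (-0.19 to 0.11).

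In the alpha ring, Psma6 was the 1 gene called with IL-4 in wild type cells, and it fell there and rose in knockout cells. It read 6.75, 6.94 and 6.83 in wild type controls, 6.28, 6.30 and 6.23 with IL-4, 6.87, 6.75 and 6.73 in knockout controls and 7.10, 7.06 and 6.91 in knockout with IL-4. Neither genotype's groups overlapped, and they moved in opposite directions. Psma6 fell 1.48-fold in wild type (-0.57, SE 0.07, limma adjusted p = 4.5e-05) and rose 1.18-fold in knockout (0.24, SE 0.07, adjusted p = 0.0175), and the difference was -0.81 (95% interval -1.02 to -0.59, adjusted p = 9.16e-05). The knockout call was lost without knockout control 2 (0.22) or 3 (0.21) or knockout IL-4 replicate 1 (0.20) or 2 (0.22), whereas the wild type call and the difference held in every alternative run. The other 6 alpha genes tested lay between -0.09 and 0.15 in wild type, none called, while Psma1, Psma2, Psma3 and Psma4 rose in knockout by 0.21 to 0.32. Psma4, Psma5 and Psma7 also had called differences, of -0.29, -0.26 and -0.24, which held in 7 to 9 of 22 fits each. All 3 were lost without any 1 of wild type controls 2 and 3, the wild type IL-4 arrays, knockout controls 2 and 3 or knockout IL-4 arrays 1 and 2 (-0.30 to -0.21), and Psma7 also without wild type control 1 (-0.25). Of the structural beta genes Psmb1 to Psmb4, none was called in wild type (-0.05 to 0.19), and Psmb2 (0.23) and Psmb3 (0.40, SE 0.08, adjusted p = 0.00242) rose in knockout. Psma4 and Psmb2 lost the knockout call without knockout control 2 or 3 or knockout IL-4 replicate 1 or 2 (0.16 to 0.24), Psma4 also without wild type control 3 or any wild type IL-4 array (0.21) and Psmb2 without any wild type control (0.23).

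The 19S cap subunits that passed the test with IL-4 were all higher, in both genotypes. Psmd8, a subunit of the cap's lid, read 5.99, 6.17 and 6.12 in wild type controls, 6.50, 6.61 and 6.52 with IL-4, 6.03, 6.13 and 6.11 in knockout controls and 6.54, 6.46 and 6.50 in knockout with IL-4. Its rise was 0.44 in wild type (SE 0.06, limma adjusted p = 8.45e-05) and 0.41 in knockout (SE 0.06, adjusted p = 0.000328), and the difference was 0.03 (95% interval -0.15 to 0.21). Of 11 non-ATPase genes, 5 rose in wild type, beside 26.4% of all genes (Psmd8, Psmd11 0.25, Psmd14, the cap's deubiquitinase, 0.22, Psmd13 0.17 and the ubiquitin receptor Psmd4 0.15), and the same 5 rose in knockout together with Psmd7 (0.29), beside 27.5% of all genes. Among the 6 ATPases, Psmc2 (0.24) and Psmc3 (0.20) rose in wild type and again in knockout (0.27 and 0.24), and 2 of 6 is near those shares. None of the 6 ATPases and only Psmd7 among the 11 had a called difference between the responses (Psmd7 -0.33, adjusted p = 0.0334), which held in 13 of 22 fits. In wild type, Psmd13 and Psmd14 lost their calls without any 1 wild type array (0.13 to 0.24), Psmd13 also without knockout control 1 or 2 or knockout IL-4 replicate 2 (0.17), Psmc3 without any wild type array but control 2 (0.18 to 0.21) and Psmd4 without control 1 or 3 or IL-4 replicate 1 or 2 (0.13 to 0.14). In knockout, Psmc3, Psmd13 and Psmd14 lost theirs without control 2 or 3 or IL-4 replicate 1 or 2 (0.17 to 0.26). The difference of Psmd7 was lost without wild type control 2 or 3, wild type IL-4 replicate 2 or 3, knockout control 2 or 3 or knockout IL-4 replicate 1 or 2 (-0.33 to -0.26).

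Of the 4 assembly chaperones of the 20S core, 2 had a called difference between the responses, both lower, beside 28.3% of all genes called lower and 16.4% higher. Psmg4, a chaperone of the 20S core, read 2.39, 2.45 and 2.34 in wild type controls, 2.48, 2.45 and 2.44 with IL-4, 2.24, 2.20 and 2.22 in knockout controls and 2.73, 2.58 and 2.66 in knockout with IL-4. It rose in knockout (0.44, SE 0.05, limma adjusted p = 8.71e-05) but gave 0.06 in wild type (adjusted p = 0.34), a difference of -0.38 (adjusted p = 0.00165). Psmg1, which acts with Psmg2 in alpha ring assembly, also had a difference of -0.38 (adjusted p = 0.0297), which held in 12 of 22 fits and was lost without any 1 of wild type controls 2 and 3, the wild type IL-4 arrays, knockout controls 2 and 3 or knockout IL-4 arrays 1 and 2 (-0.38 to -0.31). Psmg2 (-0.35) and Psmg3 (-0.33) did not pass. The cap chaperones Psmd5, Psmd9 and Psmd10 had no called difference (-0.14 to 0.02), and Psmd10, also known as gankyrin, fell in wild type (-0.20, adjusted p = 0.0297). That call was lost without wild type control 1 (-0.21) or 2 (-0.14) or wild type IL-4 replicate 3 (-0.15).

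Psmc3ip carries the name but is no subunit: its product binds Psmc3 and is known from meiotic recombination. It read 0.60, 0.80 and 0.76 in wild type controls, 0.61, 0.63 and 0.58 with IL-4, 0.69, 0.54 and 0.23 in knockout controls and 1.30, 1.33 and 1 in knockout with IL-4. It rose 1.65-fold in knockout (0.72, SE 0.12, limma adjusted p = 0.000899), gave -0.11 in wild type (adjusted p = 0.455) and differed by -0.83 (adjusted p = 0.00285). Psma8 and Psmb11, known from testis and thymus, were well above background on 0 of 12 arrays and were not tested.

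**Figure D3:**
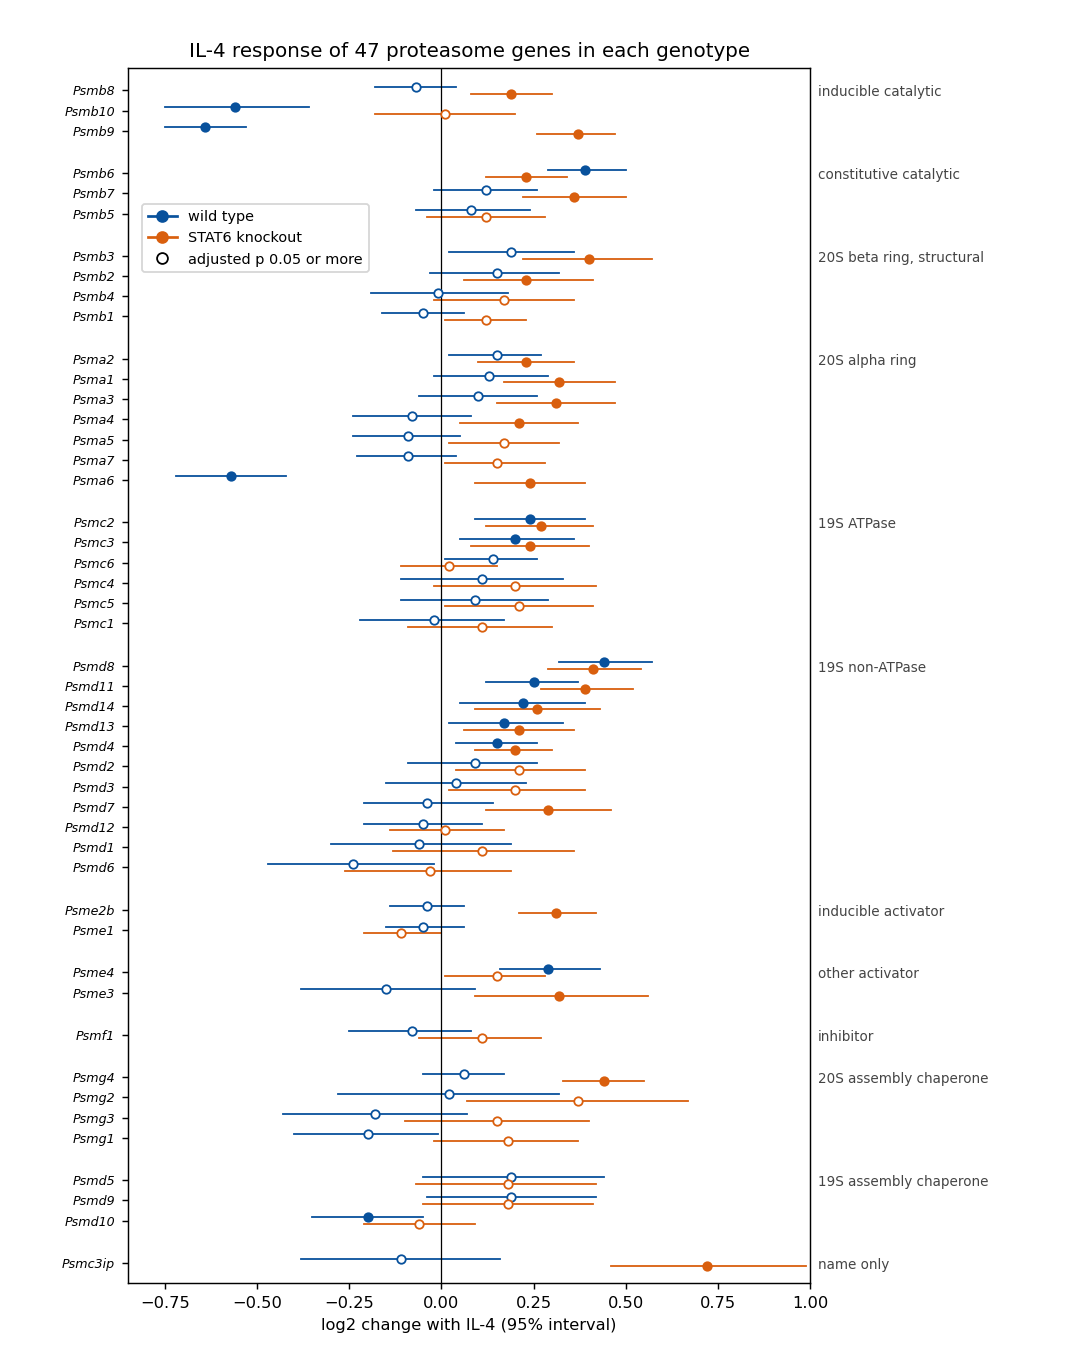
Log2 change with IL-4 (x axis, bars are 95% intervals) of the 47 members tested, in wild type (blue) and STAT6 knockout (orange), grouped by role; filled dots have adjusted p under 0.05. Psmb9, Psmb10 and Psma6 lie farthest left, in wild type, and Psmc3ip farthest right, in knockout.

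Over the family, IL-4 in wild type cells gave 9 rises and 4 falls among 47 members, or 19.1 and 8.51 percent, beside 26.4% of all genes tested that were called higher and 30.8% lower. The median member changed by 0.04 and the median gene by -0.04. By their brightest probes none of the 47 reached 2-fold, beside 12.7% of all genes. The Psme2b-only probe, left out of this count, gave -4.85. For 18 members all 3 IL-4 arrays lay above all 3 controls, and for 9 below, beside 31.8% and 37.4% of all genes. The 5 immunoproteasome genes gave 0 rises and 2 falls (median -0.07; at unadjusted p under 0.05, also 0 and 2), and the other 42 gave 9 rises and 2 falls (median 0.08). The count of 13 called members was 8 without wild type control 1, 8 without a filter on dim probes, 7 with arrays scaled to their median (4 higher and 3 lower) and 20 when only the compared arrays were fitted. Scaling to the median also changed the calls over all genes, to 3846 higher and 3780 lower from 4348 and 5080. The shares of all genes in the other 3 fits are not given here.

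In knockout cells IL-4 gave 23 rises and 0 falls among the 47, or 48.9 percent higher, beside 27.5% of all genes called higher and 14.7% lower. At an unadjusted p under 0.05 limma gave 31 and 1, with no share of all genes taken at that threshold. None reached 2-fold, beside 3.52% of all genes. The arrays did not overlap for 22 members above and 1 below their controls, beside 29.4% and 17.2% of all genes. The median member changed by 0.21 against 0.05 for the median gene. The 5 immunoproteasome genes gave 3 rises and 0 falls (unadjusted, 3 higher and 1 lower, Psme1), and the other 42 gave 20 and 0 (unadjusted, 28 and 0). Single knockout arrays were shifted for most of the family. Of the 42 other members, 38 were below their group mean on knockout IL-4 array 3 (median -0.12) and 37 on knockout control 3 (median -0.10). The part of such shifts in these counts was not tested. Within slide 2, 44 of 47 members were above knockout control 3 with IL-4, with a median of 0.30. That control is a single array, and the within-slide share of all genes was not taken. In the fit over both slides, 44 of 47 members and 9352 of 16497 genes had a positive change. Under quantile normalization 13 rose and 1 fell, and the authors' normalized values, also quantile-normalized, gave 14 and 1. Without a filter on dim probes 13 members rose, and 11 when only the compared arrays were fitted. The shares of all genes in these alternative fits are not given here.

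The difference between the responses was called for 14 of the 47, and all 14 were lower in wild type than in knockout, or 29.8 percent, beside 28.3% of all genes called lower and 16.4% higher. At an unadjusted p under 0.05 by limma the counts were 1 higher and 15 lower, with no share of all genes taken at that threshold. By brightest probes Psmb9 alone passed 2-fold, beside 10.6% of genes. The Psme2b-only probe, left out of this count, gave -4.69. All 3 inducible catalytic genes and the shared Psme2/Psme2b signal were among the 14 (4 of the 5 immunoproteasome genes, median -0.35), with 10 of the other 42 (median -0.16). The count was 7 to 9 when any 1 of wild type controls 2 and 3, the wild type IL-4 arrays, knockout controls 2 and 3 or knockout IL-4 arrays 1 and 2 was left out, and 6 without a filter on dim probes. The shares of all genes in these alternative fits were left out. Psmb9, Psmb10, Psma6, Psme2b, Psmg4 and Psmc3ip held their calls in all 22 fits.

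**Figure D4:**
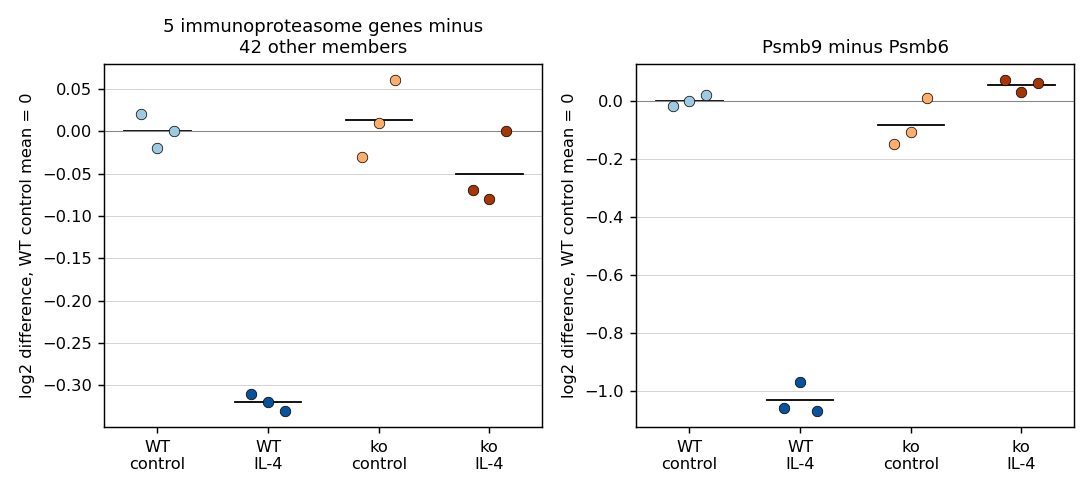
Mean log2 level of the 5 immunoproteasome genes minus that of the 42 other members (left) and Psmb9 minus Psmb6 (right) on each array, y axis in log2 units with the wild type control mean at 0; bars are means of 3. The wild type IL-4 arrays sit at -0.33 to -0.31 on the left and -1.07 to -0.97 on the right, below all other arrays.

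The mean of the 5 immunoproteasome genes was set against the mean of the 42 others on each array. Relative to wild type controls this gap was 0.02, -0.02 and 0 on the control arrays themselves, -0.31, -0.32 and -0.33 with IL-4, -0.03, 0.01 and 0.06 in knockout controls and -0.07, -0.08 and 0 in knockout with IL-4. The wild type IL-4 arrays stood apart from the other 9, which overlapped. The change with IL-4 was -0.32 in wild type and -0.07 in knockout, a difference of -0.25, with a pooled standard deviation of 0.03 between arrays of a group (n = 3). The wild type value came mostly from Psmb9 (-0.64) and Psmb10 (-0.56). Psmb8, Psme1 and the shared Psme2/Psme2b signal gave -0.07, -0.05 and -0.04, none called. Psma6, among the 42 others, fell by a similar size (-0.57). When all probes of a gene were averaged, which brings in the Psme2b-only probe, the wild type value was -0.60 and the difference -0.52.

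Without IL-4, knockout cells by limma had 0 members higher and 8 lower than wild type, beside 4.73% of all genes called higher and 6.96% lower. Unadjusted, the member counts were 0 and 26, with no share of all genes taken. Besides Psmb10, Psme4 and the shared Psme2b signal (-0.16), these were Psmd7 (-0.34), Psma4 (-0.32), Psmc5 (-0.32), Psmc3 (-0.25) and Psmg4 (-0.18). The median member was -0.17 and the median gene -0.04. All 3 knockout arrays lay below all 3 wild type arrays for 25 members and above for 0, beside 25.4% and 12.9% of all genes, and none of the 8 reached 2-fold, beside 1.18%. This count was the least steady: it was 24 without knockout control 1, 15 without knockout IL-4 replicate 3, 7 without knockout IL-4 replicate 1 and 1 to 5 without any other single array. It was 1 with the slide as a block, 5 with the mean of a gene's probes, 1 with only the compared arrays, 0 without a filter on dim probes (unadjusted p under 0.05 by limma, 0 higher and 20 lower of 49) and 36 when arrays were scaled to their median, which moved the median of all genes to -0.22 and the calls over all genes to 466 higher and 5103 lower. For the other alternative fits the shares of all genes were left out. Within slide 1, 45 of 47 members were below wild type, with a median of -0.13, and the share of all genes there was not taken. In the fit over both slides, 45 of 47 members and 9644 of 16497 genes were below wild type.

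With IL-4, knockout cells had 6 members higher and 4 lower than wild type, beside 29.8% of all genes called higher and 21.3% lower. By brightest probes none reached 2-fold, beside 9.68% of all genes. The Psme2b-only probe, left out of this count, gave 4.43. The arrays did not overlap for 9 members above and 10 below wild type, beside 33.9% and 24.8% of all genes. Psmb9 (0.86, SE 0.05, limma adjusted p = 1.68e-07), Psma6 (0.75), Psmc3ip (0.60), Psmg4 (0.20), the shared Psme2b signal (0.19) and Psmb8 (0.15) were higher. Psme4 (-0.51), Psmb6 (-0.22), Psmc3 (-0.22) and Psmc2 (-0.17) were lower. The split was 4 higher and 10 lower under quantile normalization and 5 higher and 10 lower in the authors' normalized table. It was 6 higher and 1 lower with the slide as a block, and 3 higher and 2 lower with arrays scaled to their median. The shares of all genes in those fits are not given here. Psmb8 held its call in 12 of 23 fits, and was lost without wild type IL-4 replicate 1 (0.15) or 3 (0.13) or knockout IL-4 replicate 1 (0.11) or 2 (0.15). Psmc3 was lost without any wild type IL-4 array or knockout IL-4 replicate 3 (-0.22 to -0.15), and Psmc2 also without any wild type control or knockout control 2 (-0.18 to -0.12). Each of these groups lay on 1 slide of its own, so slide and genotype cannot be told apart here except through the controls. With the slide as a block Psmb9 was 0.82 (adjusted p = 0.000125), Psma6 0.84 (adjusted p = 0.000916) and Psmb6 -0.11 (adjusted p = 0.32).

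Genes around the proteasome were taken from 5 lists, whose counts are read against the shares of all genes called: 26.4% higher and 30.8% lower with IL-4 in wild type, 27.5% and 14.7% in knockout, and 16.4% and 28.3% in the difference. Of 13 genes that relay interferon to immunoproteasome genes, 3 rose and 8 fell with IL-4 in wild type (median -0.35), 5 rose and 1 fell in knockout (median 0.03), and 0 were higher and 7 lower in the difference (unadjusted, the same counts). Irf9, a DNA-binding factor activated by interferon signalling, fell in wild type (-0.60) and rose in knockout (0.40). Irf1, a known activator of Psmb9, did the same (-0.36 and 0.22), and Irf2 (-0.70) and Irf8 (-0.51) fell in wild type and gave 0 and -0.04 in knockout. Of 14 interferon-induced genes 13 were tested, all 13 fell with IL-4 in wild type (median -2.50) and in knockout 7 rose and 1 fell (median 0.40). Ifit1, Rtp4, Usp18 and Gbp3 fell by 2.62, 3.41, 2.96 and 2.53 on the log2 scale in wild type and rose by 0.90, 0.50, 0.55 and 0.40 in knockout.

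The list for peptide loading on MHC class I held 12 genes, not all of which load peptides themselves. Of these, 7 rose and 2 fell in wild type (median 0.19) and 8 rose and 0 fell in knockout (median 0.23, and unadjusted, 10 and 1). The 2 that fell in wild type were Tap1, a subunit of the peptide transporter whose gene lies beside Psmb9 (-0.22), and Tapbp, its link to class I molecules (-0.30), and both rose in knockout (0.38 and 0.24). H2-K1, a class I heavy chain, rose in both (0.20 and 0.47), and Erap1, which trims peptides, gave -0.25 in wild type (limma adjusted p = 0.154) and rose in knockout (0.44).

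NRF1 (Nfe2l1), the transcription factor that raises proteasome genes together, rose in wild type (0.99) and in knockout (0.81), with a difference of 0.18 that did not pass (limma adjusted p = 0.0752). Of the 8 genes in its list, 5 rose and 0 fell in wild type (unadjusted, 5 and 0) and 4 rose and 0 fell in knockout (unadjusted, 4 and 1). Its partners Mafg (1.14 and 0.37) and Maff (1.39, and -0.63 in knockout, adjusted p = 0.0884) and its relative Nfe2l2 (0.45, and -0.02 in knockout) responded more in wild type, while Ddi2, the protease that activates NRF1, gave 0 in wild type and rose in knockout (0.30). Maff spread widely in knockout, at 0.16, 0.65 and 0.87 without IL-4 and -0.45, -0.44 and 0.67 with it. Among 17 proteasome partners without the Psm name, 5 rose and 2 fell in wild type and 7 rose and 0 fell in knockout (unadjusted, 8 and 0). Pomp, the chaperone needed to build new core particles, fell in wild type (-0.31) and gave 0.12 in knockout (adjusted p = 0.195). AI314180, the array's name for the adaptor Ecm29, rose in wild type (0.53) and gave 0.03 in knockout. The ubiquitin ligase Ube3c and the shuttle Ubqln1 rose in knockout (0.32 and 0.39) and gave -0.14 and 0.10 in wild type, neither called.

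**Figure D5:**
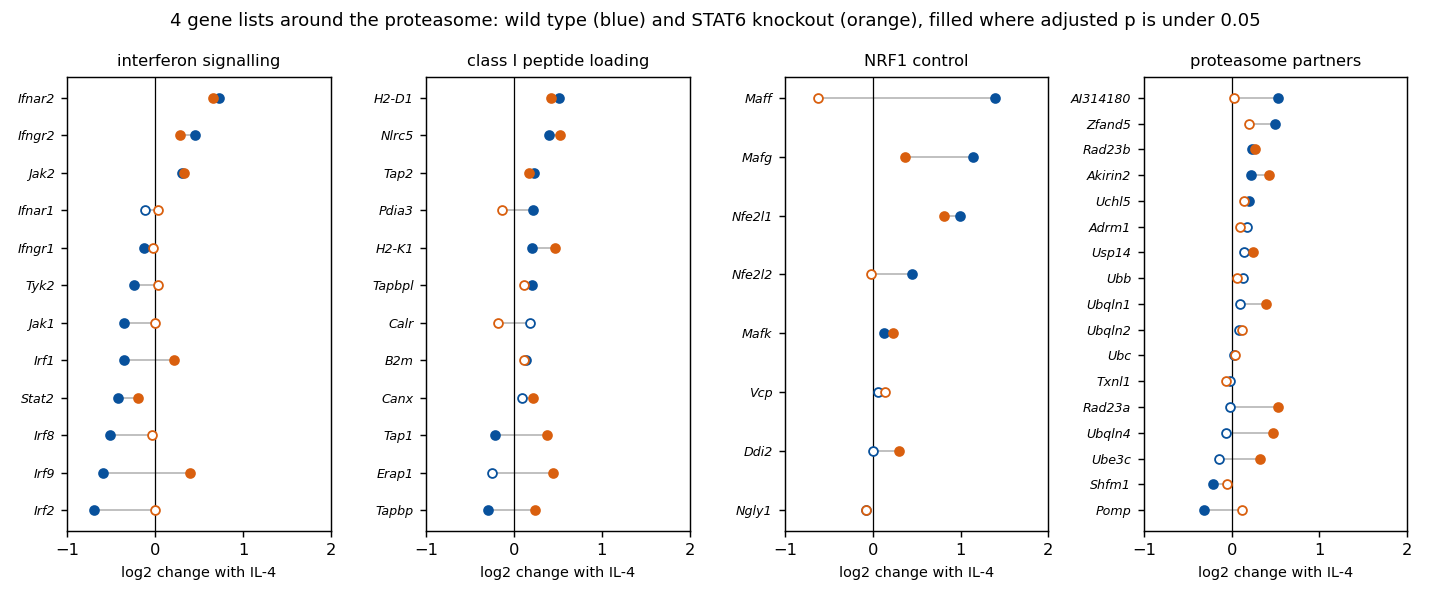
Log2 change with IL-4 (x axis) of the genes of 4 lists, 12 of the 13 for interferon signalling, in wild type (blue) and STAT6 knockout (orange), filled where adjusted p is under 0.05. Irf9, Irf1, Tap1 and Tapbp lie left of 0 in wild type and right of 0 in knockout; Maff and Mafg lie farthest right in wild type.

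Markers of other cells moved with IL-4, within a list often in opposite directions. Of 6 plasma cell markers, 3 rose and 3 fell with IL-4 in wild type, where Igj, the joining chain of secreted antibody, gave -5.82, Derl3 -3.07 and Prdm1, the master regulator of plasma cells, -2.81, against 0.87 for Xbp1, 0.76 for Sdc1 and 0.29 for Irf4. In knockout, Igj (-3.44), Prdm1 (-1.69), Derl3 (-1.66) and Xbp1 (-0.90) fell, and Irf4 rose (0.23). Their summed level was 7.87 to 7.95 in wild type controls, 7.87 to 7.90 in wild type with IL-4, 7.70 to 8.03 in knockout controls and 6.80 to 6.84 in knockout with IL-4. Such a sum adds intensities of different probes and mostly follows the brightest. In wild type, Xbp1 read 6.60 to 6.67 without and 7.48 to 7.52 with IL-4, and Igj 6.35 to 6.42 and 0.45 to 0.64. The near-equal wild type sums therefore hide opposite changes.

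Of 5 macrophage or monocyte markers tested of 6, Emr1 (-0.92) and Cd68 (-0.45) fell with IL-4 in wild type and Cd14 rose (0.38), while Itgam (0.17) and Csf1r (-0.12) were not called, and the sum was 4.57 to 4.63 there and 5.13 to 5.45 in the other groups. Of 4 dendritic cell markers, Itgax (2.57), Zbtb46 (1.35) and Siglech (0.31) rose in wild type and Flt3 fell (-1.65). Itgax read -3.12 to -2.71 in wild type with IL-4, -6.02 to -4.68 in wild type controls and -6.02 to -5.24 in knockout. Levels outside the wild type IL-4 group were thus as dim as those of the untested Psma8, so the size of this rise is uncertain. Their sum was 6.79 to 7.20 over all groups, mostly from Siglech (6.37 to 6.91). Of 5 T cell markers tested of 6, Cd3d was called in wild type (0.73), and the sum was 5 to 5.35, mostly from Lck (4.90 to 5.25). With IL-4 in knockout, Emr1 (0.55) and Zbtb46 (0.98) rose and Cd68 (-0.92) and Lck (-0.18) fell. The other macrophage, dendritic and T cell markers tested were not called there. NK cell and erythroid markers were represented by 1 gene each. The part of these shifts in the changes of Psmb9, Psmb10 and the other members was not tested.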

How the data were processed

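RNA of 12 B cell cultures was labelled with Cy3 and hybridised to 1-colour Agilent arrays, per the labels' protocols. The deposited scanner files hold the processed signal, a background-subtracted intensity made by Agilent Feature Extraction 10.7.3.1 (version per the file headers, name per the submitters' processing notes). A deposited log2 table of the authors' values, background-subtracted and quantile-normalized per the file headers, served as an alternative only and is not independent of the quantile normalization tried here.

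From the intensities, log2 values were taken and each array's 75th percentile over non-control spots was subtracted. Spots flagged as outliers were dropped and repeated spots averaged. Probes had to pass the scanner's test against background on every array of some group, as 60 of 63 member probes did, and each gene took its brightest such probe. All 4 groups were fitted together in limma 3.58.1 (R 4.3.3) with Benjamini-Hochberg adjustment over 16497 genes per comparison, and a call is an adjusted p under 0.05. Counts at an unadjusted p under 0.05 were made for members and lists only, so no share of all genes stands beside them. Comparisons were IL-4 against control in each genotype, the difference between those responses, and knockout against wild type with and without IL-4, and comparisons that share a group share its arrays. The script was tested on simulated data. Probe accessions matched RefSeq for 61 of 63 member probes. Probe positions are those of the files, on mm9.

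Deviations from group means correlated at -0.24 to 0.39 over 18 same-numbered pairs of arrays, beside -0.47 to 0.31 over 36 differently numbered pairs. These ranges do not settle whether numbers paired the cultures. In knockout, 37 and 38 of the 42 other members lay below their group mean on array 3 without and with IL-4. The reported fit did not pair arrays, and a replicate block was run as an alternative. The members, the gene lists and the naming rule were chosen with earlier results of these data known. Named in full were the immunoproteasome genes, their counterparts, the other activators and the inhibitor, then up to 5 called members per direction and comparison, then up to 4 genes per list with the smallest adjusted p in the difference between the responses, with a few others given as examples of their role or list. No array spot was saturated, and 3 arrays per group limit the precision. A few marker and list genes are not reported here.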

Additional observations from a re-analysis of the deposited data

Results flagged for a closer look

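The response to IL-4 differed between the genotypes, by limma's test of that difference at an adjusted p under 0.05, for 14 members, 20 list genes named above and 3 further probes. Values here are wild type minus knockout on the log2 scale. The members were Psmb9 (-1), Psmc3ip (-0.83), Psma6 (-0.81), Psmb10 (-0.57), Psme3 (-0.47), Psmg1 and Psmg4 (-0.38 each), the shared Psme2/Psme2b signal (-0.35), Psmd7 (-0.33), Psma4 (-0.29), Psma5 and Psmb8 (-0.26 each), and Psma7 and Psmb7 (-0.24 each). The probes were the Psme2b probe without Psme2 accessions (-4.69), the dimmer Psmb9 probe (-0.74) and the dimmer Psme4 probe (0.50).

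Among interferon-induced genes the differences were -3.91 for Rtp4, -3.52 for Ifit1, -3.51 for Usp18 and -2.93 for Gbp3. In interferon signalling they were -1 for Irf9, -0.70 for Irf2, -0.59 for Irf1 and -0.47 for Irf8. In class I loading they were -0.69 for Erap1, -0.59 for Tap1, -0.54 for Tapbp and -0.27 for H2-K1. Around NRF1 they were 2.02 for Maff, whose knockout arrays spread widely, 0.77 for Mafg, 0.47 for Nfe2l2 and -0.31 for Ddi2. Among the partners they were 0.50 for AI314180, -0.45 for Ube3c, -0.43 for Pomp and -0.30 for Ubqln1. With 3 arrays per group, single arrays were not tested as outliers.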

How the results depend on the processing

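No change of a member that was called, in the reported fit or under an alternative, turned its sign under the alternatives run, whereas some that were not called crossed 0. Over all member changes, 4619 stayed on their side of the threshold, 332 lost the call and 172 gained it, and the cause was not tested. Member counts under alternatives stand without the share of all genes in the same fit. Exceptions are IL-4 in wild type and the comparison of the controls, both with arrays scaled to their median. Arrays scaled to their median gave 7 calls with IL-4 in wild type (4 up and 3 down), 5 between genotypes with IL-4 and 36 without IL-4, and moved the median of all genes to 0.20 for IL-4 in knockout, -0.23 for the difference and -0.22 between the controls. Without a filter on dim probes the calls were 8 in wild type, 13 in knockout, 6 for the difference and 0 between the controls (unadjusted p under 0.05 by limma, 0 higher and 20 lower of 49). Fitting only the compared arrays gave 20 in wild type, 11 in knockout and 1 between the controls. In knockout, quantile normalization gave 14 calls and the authors' normalized values gave 15. Between the controls the mean of all kept probes gave 5, the slide as a block 1 and the replicate block 4. The replicate block moved no other count of member calls by over 1.5 times.

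With 1 array left out, calls were 8 to 18 in wild type, 16 to 33 in knockout, 7 to 19 for the difference, 7 to 10 between genotypes with IL-4 and 1 to 24 without it. The gap of the immunoproteasome genes then ranged from -0.33 to -0.31, -0.09 to -0.04, -0.27 to -0.23, 0.24 to 0.28 and -0.01 to 0.04 in that order. Averaging all kept probes moved the gap to -0.60 in wild type, -0.52 for the difference and 0.55 between genotypes with IL-4. The slide as a block moved it to -0.21 for the difference, -0.11 in knockout and 0.20 between genotypes with IL-4, the authors' table to -0.03 in knockout and -0.03 between the controls, and quantile normalization to -0.02 between the controls.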
